A study of Mus musculus with 15 samples.

Results

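The genes described here encode the 3 nuclear RNA polymerases and the general transcription factors that bring them to promoters, and their messenger RNAs were followed through meiotic maturation of the mouse oocyte. The members are the genes whose annotated symbol starts with Polr1, Polr2, Polr3, Gtf2 or Gtf3, or is Taf followed by a digit, read from probe sets with exactly 1 symbol and without Taf4b. There were 69 such genes, on 134 probe sets, among 18193 genes named on the array. Where a gene had several probe sets, the one brightest on average over the 15 arrays stands for it. The members were chosen by a rule on names, with earlier results of these data known, and 61 of the 69 passed the filter on low signal and were tested.

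RNA polymerase I makes the large ribosomal RNA, polymerase II makes messenger RNA, and polymerase III makes transfer RNA and other short RNAs. The enzymes share several subunits and otherwise differ in their large catalytic subunits and in the factors that act at their promoters. Among these factors are SL1 for polymerase I and TFIIIA and TFIIIC for polymerase III. Polymerase II uses the TFII factors with TFIID and its TBP-associated factors (TAFs). The fully grown oocyte is known to stop most of its transcription before meiosis resumes, so that messenger RNA levels during maturation change mainly through decay of stored transcripts and through changes in their poly(A) tails. Transcription resumes in the embryo after fertilisation.

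Expression was measured with Affymetrix arrays in oocytes of B6D2F1 hybrid females, all given pregnant mare serum gonadotropin (PMSG). Adults of 7 to 8 weeks gave immature oocytes at the germinal vesicle (GV) stage, taken 48 h after PMSG (n = 2 arrays). They also gave eggs arrested at metaphase II (MII), matured either in vivo, after human chorionic gonadotropin given 48 h after PMSG (n = 3), or in vitro, from GV oocytes cultured for 16 h (n = 2). Females of 26 days (d26) gave MII oocytes matured in vivo (n = 2) or in vitro (n = 3), and females of 20 days (d20) gave MII oocytes matured in vitro (n = 3). In all groups hyaluronidase was used to take off the cumulus cells, each array came from a pool of 150 oocytes, and polyadenylated RNA was isolated with oligo(dT) beads and amplified in a pair of rounds. Whether different pools drew on different females is not stated, so the p-values reflect the scatter of these pools alone, some of which may be technical. A lower signal can stem from less RNA per oocyte, fewer oocytes in a pool or a shorter poly(A) tail, and these cannot be told apart here.

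All 12 oocyte markers, among them Zp1, Zp2, Zp3, Gdf9 and Bmp15, were above the filter level on every array. Their summed normalized level was 66470 to 71275 on the GV arrays and 24371 to 42508 on the MII arrays. These markers did not move as one. In adult MII oocytes Zp1, Zp2, Zp3, Ooep and Nlrp5 were called lower than in GV in vivo and in vitro, and Kit in vitro alone. Ddx4 was called higher, by 1.16 in vivo and 1.83 in vitro, and the other oocyte markers were not called. The arrays differed in brightness: 4 dim arrays, replicate 1 of adult in vivo MII, replicate 2 of adult in vitro MII and replicates 2 and 3 of d26 in vitro MII, had 2615 to 3042 probe sets above a deposited intensity of 200, the others 4882 to 9819, with the GV arrays brightest. The ratio of the 3′ to the 5′ control probe set of Gapdh, a sign of RNA integrity and amplification, ran from 2.27 to 82.3, and was 68.0 and 82.3 on the d26 in vivo arrays against 13.7 and 17.7 on the GV arrays. The summed levels of markers of other cells also differed between stages. The summed level of 11 cumulus and granulosa markers was 207 to 248 on the GV arrays, 353 to 430 in adult in vivo MII and 480 to 485 in adult in vitro MII; that of 9 leukocyte markers was 59.7 to 70.6, 221 to 686 and 158 to 185; and that of 7 oviduct markers was 1397 to 1726, 2832 to 5291 and 3383 to 3433. The cumulus and granulosa markers did not move as one. Nr5a2, the brightest, differed from GV by 1.00 in vivo and 1.61 in vitro and Ptgs2 by 2.13 and 1.85. Cyp11a1 differed by -1.56 and -1.62, Fshr by -1.42 and -0.78 and Inha by -0.38 and -1.96, none called. From 8 to 10 of the 11 were above the filter level on the GV arrays, and 7 to 8 in adult in vivo MII. The oviduct sum is nearly all Cdh1, which was bright on every array, at log2 levels of 10.34 and 10.66 on the GV arrays and 10.96 to 12.26 on the MII arrays. The other oviduct markers did not move as one: Ovgp1 differed from GV by 3.63 in vivo (adjusted p = 0.00466) and 0.45 in vitro (adjusted p = 0.773) by limma, and Krt8 by -1.25 and -2.57 without a call. The lowest deposited intensity of any marker was 0.339, so none was at 0. Their part in the results was not tested. On each array 54 to 67 of the 69 members were above the filter level.

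Levels below are log2 intensities after quantile normalization, which gives every array the same distribution. A rise or fall is thus relative to the other RNAs on the array, and is called where limma's moderated test gave a Benjamini-Hochberg adjusted p below 0.05 over all 22519 probe sets tested. Each difference from GV is given with its standard error (SE), first for in vivo and then for in vitro matured adult MII oocytes. These comparisons share the same GV arrays, so their agreement is not independent evidence. Where a value is given without 1 array of a pair, the group is left with a lone array that is assumed to vary as the other groups do; without adult in vitro replicate 1 that lone array is a dim one.

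Maturation was accompanied by falls in the transcripts of several core polymerase subunits. Those of TFIIA and of several TFIID subunits rose on the quantile scale, relative to the other RNA on the array. Members were called higher about as often as all probe sets. No called rise kept its call under every alternative processing, a check that favoured falls, as described below. In adult in vivo MII oocytes 14 of the 61 tested members were lower and 11 higher than in GV oocytes, and 36 were not called. Among all probe sets tested 26.8% were called, 11.1% lower and 15.7% higher. The median difference of the members was -0.19, against 0.24 for all probe sets tested, and single members ran from -7.77 to 2.30. In adult in vitro MII oocytes 13 members were lower, 9 higher and 39 not called, against 27.7% of all probe sets called, 11.7% lower and 16% higher. The median of the members was -0.62, against 0.13 for all. In both comparisons 12 members were lower and 8 higher, and 34 were called in neither.

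The direction of the rises depends on the scaling. Under the intensities as deposited, or scaled to the hybridization controls added just before hybridization, 0 members were called higher in either comparison, and the median of all probe sets tested was -0.98 and -1.94 under the former and -1.32 and -2.38 under the latter. Relative to that median, each of the 11 and 9 members called higher stayed above it under every scaling. The deposited, median and hybridization control scalings shift all probe sets of an array alike. They thus give the same distance from the median and are not separate checks of it. No called fall turned into a rise under any scaling, but this check favoured falls. Each other scaling moved the median of all probe sets down, median scaling from 0.24 and 0.13 to -0.21 and -0.53. The in vivo falls of Polr2d and Polr2g were still not called under some scalings. The falls called in both comparisons under every alternative tried numbered 6, those of Polr1d, Polr2b, Polr2i, Polr3a, Taf1a and Gtf2e2.

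**Figure D1:**
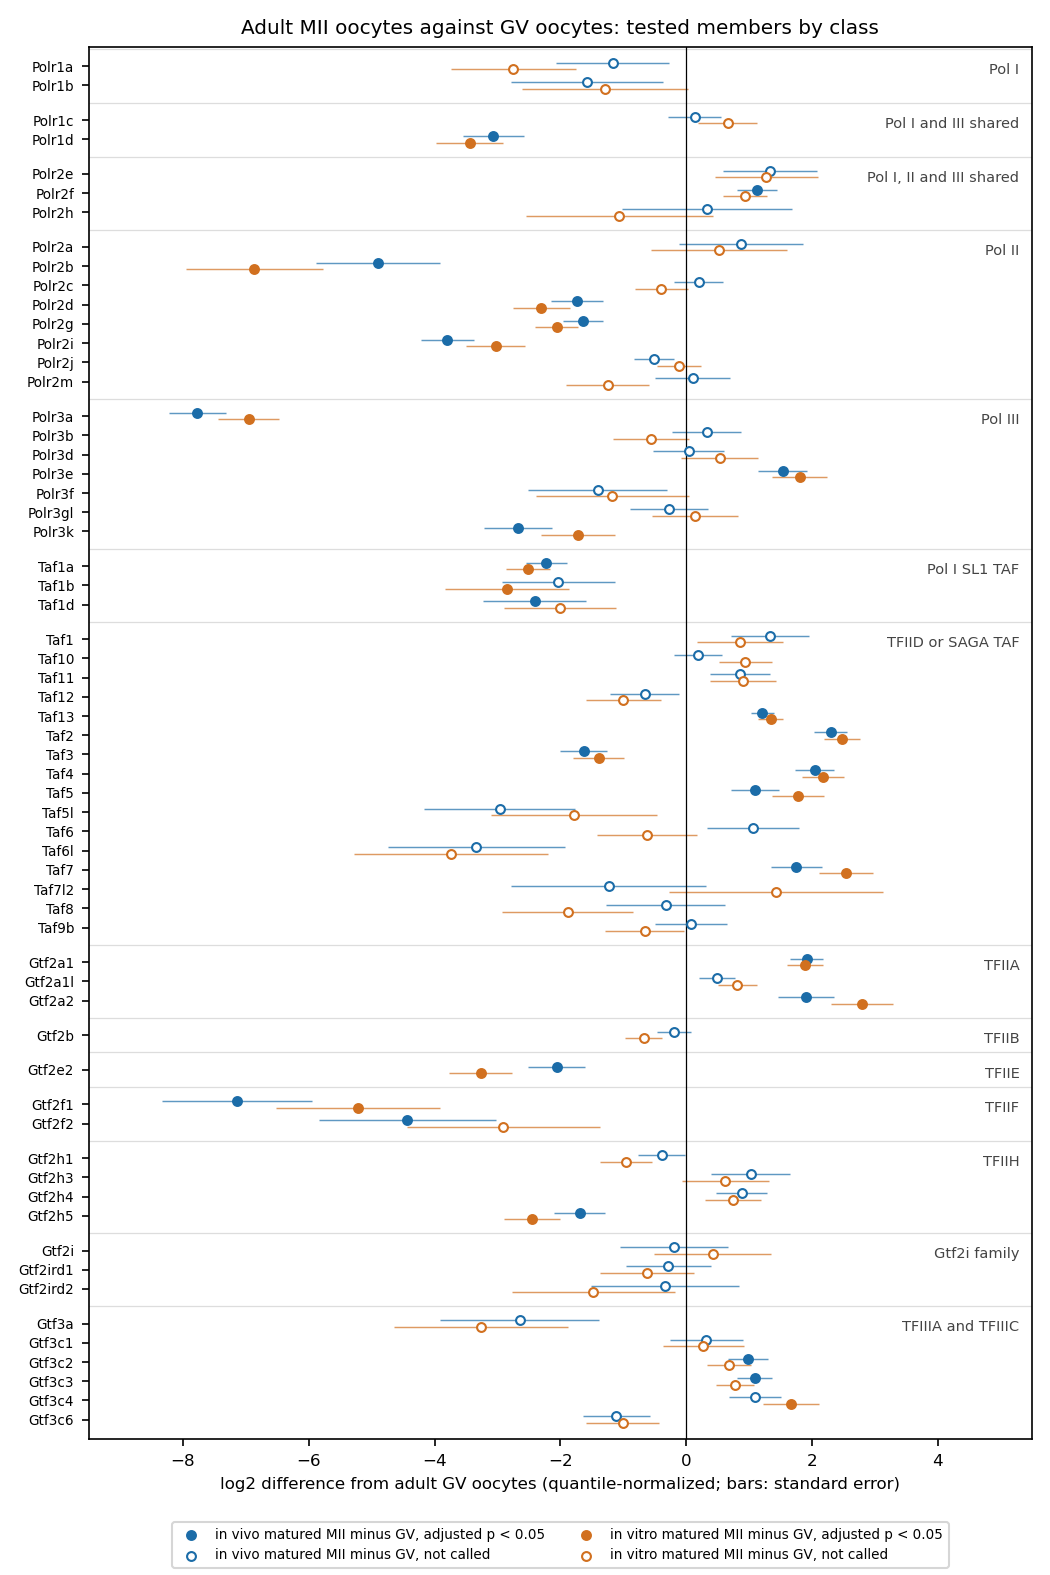
Log2 difference of adult MII from adult GV oocytes (x axis) for the 61 tested members, grouped by complex, for in vivo (blue) and in vitro (orange) maturation. Bars are standard errors and filled points have an adjusted p below 0.05; Polr3a, Polr2b and Gtf2f1 lie farthest to the left, and no called rise exceeds 2.79. The rises are relative to the array's other RNA and are not called under the deposited intensities or hybridization control scaling.

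In 18 of the 61 tested members all 13 MII arrays, of every age and either maturation, lay below both GV arrays, and in 14 all lay above, against 15.8% and 18% of all probe sets tested. In the remaining 29 the arrays overlapped. These counts include the adult MII arrays and rest on the same 2 GV arrays as the fits.

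RNA polymerase II. Of the 8 subunits tested, 4 fell in both comparisons and none rose (0 of 8), and their median difference was -1.07 in vivo and -1.65 in vitro. Of all probe sets 11.1% were lower and 15.7% higher in vivo, and 11.7% and 16% in vitro. The promoter letters of 4 members, picked after their values were seen as examples of those called in both comparisons, are shown first so that the genes can be placed. Each line is the 250 bases before the annotated start of the gene (GRCm38.p6), 5′ to 3′ on the gene's strand, with matches on either strand in capitals. The motifs searched were the GC box, spelled GGGCGG. The CCAAT box is its own spelling. The ETS motif was spelled CCGGAAG, the TATA box was spelled TATAAA, and the core of the YY1 motif was spelled ATGGCGG. The first pair is from members that fell, the second from members that rose relative to the array.
Polr2b, chr5:77310234-77310483, plus strand: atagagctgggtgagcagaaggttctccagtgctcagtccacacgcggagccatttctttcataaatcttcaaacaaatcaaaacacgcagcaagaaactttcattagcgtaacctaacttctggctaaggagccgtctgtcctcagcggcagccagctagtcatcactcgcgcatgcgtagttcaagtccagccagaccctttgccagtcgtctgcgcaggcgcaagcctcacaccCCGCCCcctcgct
Polr2i, chr7:30231824-30232073, plus strand: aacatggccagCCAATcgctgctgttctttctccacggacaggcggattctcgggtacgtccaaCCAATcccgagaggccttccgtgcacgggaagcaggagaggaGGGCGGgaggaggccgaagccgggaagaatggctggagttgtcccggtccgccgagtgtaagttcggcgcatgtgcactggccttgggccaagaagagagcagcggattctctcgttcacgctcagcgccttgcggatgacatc
Gtf2a1, chr12:91590488-91590737, minus strand: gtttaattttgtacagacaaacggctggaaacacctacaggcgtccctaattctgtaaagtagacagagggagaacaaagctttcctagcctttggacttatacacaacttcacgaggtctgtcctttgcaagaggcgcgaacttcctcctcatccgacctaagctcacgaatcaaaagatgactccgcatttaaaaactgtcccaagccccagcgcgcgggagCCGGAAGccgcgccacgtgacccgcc
Taf4, chr2:179976647-179976896, minus strand: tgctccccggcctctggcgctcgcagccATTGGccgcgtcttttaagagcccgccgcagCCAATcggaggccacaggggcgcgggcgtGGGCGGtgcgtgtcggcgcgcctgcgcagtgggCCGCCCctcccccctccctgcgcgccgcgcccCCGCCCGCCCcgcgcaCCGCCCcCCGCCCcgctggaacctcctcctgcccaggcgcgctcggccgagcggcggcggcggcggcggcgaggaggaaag

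The Polr2b window holds 1 GC box, 13 bases before the start, the Gtf2a1 window 1 ETS motif and no other, and the Taf4 window 6 GC boxes and a pair of CCAAT boxes. Over the 73 windows of the 62 members in the table, 52.1% held a GC box, 31.5% a CCAAT box, 27.4% an ETS motif, 13.7% a TATA box and 4.11% a YY1 core. The shares over all 32851 windows were 32.7%, 33.8%, 6.91%, 12.4% and 2.21%. The 10 windows of members that fell in both comparisons came from 8 of 12 genes. The 7 windows of those that rose in both came from 6 of 8 genes. A TATA box was in 1 of 10 and 3 of 7 of these windows, and a GC box in 5 of 10 and 4 of 7. A CCAAT box was in 4 of 10 and 2 of 7, an ETS motif in 4 of 10 and 2 of 7. A YY1 core was in 0 of 10 and 0 of 7. These are counts of letters, not of bound sites, and they were not tested.

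Polr2b, the second largest subunit, which forms the catalytic centre together with Polr2a, was at 12.05 and 12.21 on the GV arrays. It was at 7.91, 6.60 and 7.20 in adult in vivo MII, at 6.16 and 4.38 in adult in vitro MII, at 7.29 and 7.44 in d26 in vivo MII, at 3.82, 0.30 and 3.21 in d26 in vitro MII, and at 1.85, 4.61 and 4.73 in d20 in vitro MII. Every MII array was far below both GV arrays, and the in vitro arrays were lower than the in vivo arrays both in adults and in d26 females. The differences from GV were -4.90 (SE 0.99, adjusted p = 0.00184) and -6.86 (SE 1.08, adjusted p = 0.000337). Polr2a, the largest subunit, whose tail coordinates capping, splicing and 3′ end formation, was at 5.72 and 6.0 in GV oocytes and at 7.32, 5.85 and 7.04 after maturation in vivo. Its differences of 0.87 (SE 0.98) and 0.53 (SE 1.08) were not called (adjusted p = 0.591 and 0.773).

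Polr2d and Polr2g, which pair to form the stalk of the enzyme, both fell. Polr2d went from 10.99 and 11.37 in GV oocytes to 8.87, 9.51 and 9.97 in vivo and 9.45 and 8.31 in vitro, differences of -1.74 (SE 0.41, adjusted p = 0.00567) and -2.30 (SE 0.45, adjusted p = 0.00153). Polr2g went from 11.17 and 11.68 to 9.68, 9.42 and 10.26 in vivo and 9.82 and 8.90 in vitro, differences of -1.63 (SE 0.32, adjusted p = 0.00142) and -2.06 (SE 0.35, adjusted p = 0.000547). For neither gene did any of the 13 MII arrays reach the GV arrays. The in vivo fall of Polr2d was not called without adult GV replicate 2 (-1.57, adjusted p = 0.0772), with deposited intensities (-2.49, adjusted p = 0.124), with median scaling (-1.72, adjusted p = 0.0883) or with hybridization control scaling (-2.83, adjusted p = 0.107). That of Polr2g was not called with deposited intensities (-2.31, adjusted p = 0.0736) or hybridization control scaling (-2.64, adjusted p = 0.069). The in vitro falls of both kept their call under every alternative.

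Polr2i, a small subunit involved in start site choice and transcript fidelity, was at 10.41 and 10.32 in GV oocytes, at 6.99, 6.14 and 6.57 in vivo and at 7.04 and 7.64 in vitro. All other MII arrays lay between 5.94 and 7.25. The differences were -3.79 (SE 0.43, adjusted p = 2.89e-05), a level 13.9-fold lower, and -3.02 (SE 0.47, adjusted p = 0.000303), a level 8.13-fold lower.

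The assembly subunit Polr2c, whose partner is Polr2j, did not follow. Polr2c was at 11.49 and 11.66 in GV oocytes, at 11.09, 12.18 and 12.06 in vivo and at 11.61 and 10.75 in vitro, so that the groups overlapped (differences 0.20, SE 0.39, and -0.39, SE 0.42; adjusted p = 0.775 and 0.556). Polr2j differed by -0.51 (SE 0.32) and -0.11 (SE 0.35), and Polr2m, a subunit that joins a fraction of the enzyme, by 0.10 (SE 0.60) and -1.25 (SE 0.66), none of them called. Without adult in vitro replicate 1 the in vitro difference of Polr2m was -2.14. With all arrays it was called lower under deposited, median and hybridization control scaling. The in vitro difference of Polr2j was called lower under deposited and hybridization control scaling. With 2 GV arrays these intervals are wide, and smaller changes of these subunits are not excluded by the test.

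The 3 tested members Polr2e, Polr2f and Polr2h are subunits of all 3 polymerases. Polr2f was at 7.65 and 7.26 in GV oocytes, at 8.54, 8.67 and 8.53 in vivo and at 8.70 and 8.08 in vitro. All MII arrays were above both GV arrays on this scale, and the rise of 1.13 in vivo (SE 0.32, adjusted p = 0.0165) was called, while 0.94 in vitro (SE 0.35, adjusted p = 0.0605) was not; the latter was called without d26 in vitro replicate 2 (0.93, adjusted p = 0.0296) or adult in vitro replicate 2 (1.25, adjusted p = 0.0483). The in vivo rise was 0.95 without adult GV replicate 2 (adjusted p = 0.166), and the difference turned to -0.65 with deposited intensities and -0.99 with hybridization control scaling. Polr2e and Polr2h were not called, at 1.34 (SE 0.75) and 0.33 (SE 1.36) in vivo. Without d26 in vitro replicate 2 the in vivo difference of Polr2e was called (1.38, adjusted p = 0.0496), as it was without the dim arrays (1.35, adjusted p = 0.0169). For Polr2e a second probe set differed by -3.84 in vivo (adjusted p = 0.0106), opposite to the one reported.

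RNA polymerase III. Of 9 subunits 7 were tested, of which 2 fell and 1 rose in both comparisons. Of all probe sets 11.1% were lower and 15.7% higher in vivo, and 11.7% and 16% in vitro, so the rise is near that share. Polr3a, the largest subunit and catalytic core, was at 11.54 and 11.38 in GV oocytes and dropped to 3.53, 3.79 and 3.76 in vivo and 4.46 and 4.55 in vitro. On the d26 and d20 arrays it was between 3.85 and 5.04, close to the filter level of 3.07. The differences of -7.77 (SE 0.45, adjusted p = 4.14e-07) and -6.96 (SE 0.49, adjusted p = 1.79e-06) were the largest of all members in both comparisons. A second Polr3a probe set also fell, by 7.56 in vivo (adjusted p = 0.000253) and by 4.69 in vitro (adjusted p = 0.0119). Another, with a mean of 3.08 at the filter level, differed by 1.56 in vivo (adjusted p = 0.315) and rose by 3.26 in vitro (adjusted p = 0.0424).

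Polr3b, the second largest subunit, was at 5.87 and 5.59 in GV oocytes, at 5.59, 6.15 and 6.44 in vivo and at 6.20 and 4.14 in vitro, and was not called (0.33, SE 0.55, and -0.56, SE 0.60; adjusted p = 0.735 and 0.553). Its arrays overlapped with GV, unlike those of its catalytic partner Polr3a. Polr3k, which takes part in RNA cleavage and termination, went from 11.19 and 11.48 to 10.02, 7.71 and 8.27 in vivo and 9.37 and 9.87 in vitro. The differences were -2.67 (SE 0.54, adjusted p = 0.00185) and -1.72 (SE 0.59, adjusted p = 0.0417). Another Polr3k probe set was called in vivo alone, at -1.43 (adjusted p = 0.0426) against -0.56 in vitro. Further ones, called in neither, differed by -0.15 and 0.97, by 1.88 and 2.01 and by -2.76 and -0.94. Only the reported probe set was called in vitro. The in vitro call was lost without any one of 8 arrays, with adjusted p from 0.0523 without d20 in vitro replicate 2 to 0.194 without adult GV replicate 2; the others were adult GV replicate 1, adult in vitro replicates 1 and 2, d20 in vitro replicates 1 and 3 and d26 in vitro replicate 3.

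Polr3e was the only subunit particular to polymerase III among those tested that was called higher, from 4.80 and 4.56 to 6.36, 6.08 and 6.21 in vivo and 6.56 and 6.41 in vitro. The differences of 1.54 (SE 0.39, adjusted p = 0.0088) and 1.80 (SE 0.43, adjusted p = 0.00556) became 1.39 (adjusted p = 0.0941) and 1.65 (adjusted p = 0.0549) without adult GV replicate 2. They reversed to -0.29 and -1.05 with hybridization control scaling, and another Polr3e probe set differed by -2.77 and -2.35 without a call. The paralogs Polr3g and Polr3gl, which occupy the same place in alternative forms of the enzyme, were both low: Polr3g did not pass the filter and Polr3gl differed by -0.27 (SE 0.63) and 0.15 (SE 0.69). Polr3d and Polr3f were not called.

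RNA polymerase I. The 2 large subunits Polr1a and Polr1b were low in every group and neither was called. Polr1a was at 5.12 and 5.56 in GV oocytes, at 2.55, 5.38 and 4.58 in vivo and at 1.81 and 3.38 in vitro (-1.17, SE 0.90, and -2.74, SE 0.99; adjusted p = 0.402 and 0.051). The in vitro difference of Polr1a was -3.61 without the dim arrays (adjusted p = 0.0015), and was also called without adult in vivo replicate 1 (adjusted p = 0.022) or 2 (0.044) or d26 in vitro replicate 2 (0.0217) or 3 (0.0494). Polr1b was at 4.66 and 4.48, at 4.23, 3.28 and 1.47, and at 1.66 and 4.91. Polr1e, a polymerase I factor subunit that did not pass the filter, was at 6.44 and 6.12 on the GV arrays and between -0.62 and 4.08 on the MII arrays.

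Polr1c and Polr1d form the assembly dimer shared by polymerases I and III, and only Polr1d was called. Polr1d was at 10.40 and 10.52 in GV oocytes, at 6.88, 7.49 and 7.83 in vivo, at 8.01 and 6.03 in vitro and between 7.13 and 8.01 on the younger females' arrays. No MII array came near the GV level. The differences were -3.06 (SE 0.48, adjusted p = 0.000326) and -3.44 (SE 0.53, adjusted p = 0.000288), and a further pair of Polr1d probe sets fell too, by 4.48 and 2.97 in vivo. Polr1c was at 5.97 and 5.94 in GV oocytes and between 5.54 and 7.05 on all MII arrays, with differences of 0.13 (SE 0.43) and 0.66 (SE 0.47) that were not called. Under deposited intensities and hybridization control scaling the in vitro difference of Polr1c became -2.29 (adjusted p = 0.0428) and -2.72 (adjusted p = 0.0301).

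The TAFs of SL1, the selectivity factor of polymerase I, were lower where called. Taf1a was at 11.17 and 11.03 in GV oocytes, at 8.31, 9.28 and 9.04 in vivo and at 8.79 and 8.38 in vitro, and no MII array exceeded 9.37. The differences were -2.22 (SE 0.32, adjusted p = 0.00018) and -2.52 (SE 0.35, adjusted p = 0.000158). Taf1d was called lower in vivo (-2.41, SE 0.82, adjusted p = 0.0401) but not in vitro (-2.00, SE 0.89, adjusted p = 0.116). Taf1b was called lower in vitro (-2.85, SE 0.98, adjusted p = 0.0429) but not in vivo (-2.04, SE 0.90, adjusted p = 0.115). Both uncalled differences were called under deposited, median and hybridization control scaling, which move the median of all probe sets down. Another Taf1d probe set differed by 0.70 in vivo and 1.84 in vitro without a call. For both genes every MII array lay below both GV arrays. The difference between in vivo and in vitro MII was not called for either gene, and without adult in vitro replicate 2 Taf1d was called lower in vitro too (-3.32, adjusted p = 0.0272). The call of Taf1d was lost without any one of 10 arrays (adjusted p from 0.0507 to 0.178), all except adult in vitro replicates 1 and 2 and d26 in vitro replicates 1 to 3. That of Taf1b was lost without any one of 9, and its difference was -1.38 (adjusted p = 0.393) without adult in vitro replicate 2, which at 1.69 was the lowest array. Taf1c did not pass the filter, at 4.47 and 4.45 in GV oocytes and at most 2.74 elsewhere.

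**Figure D2:**
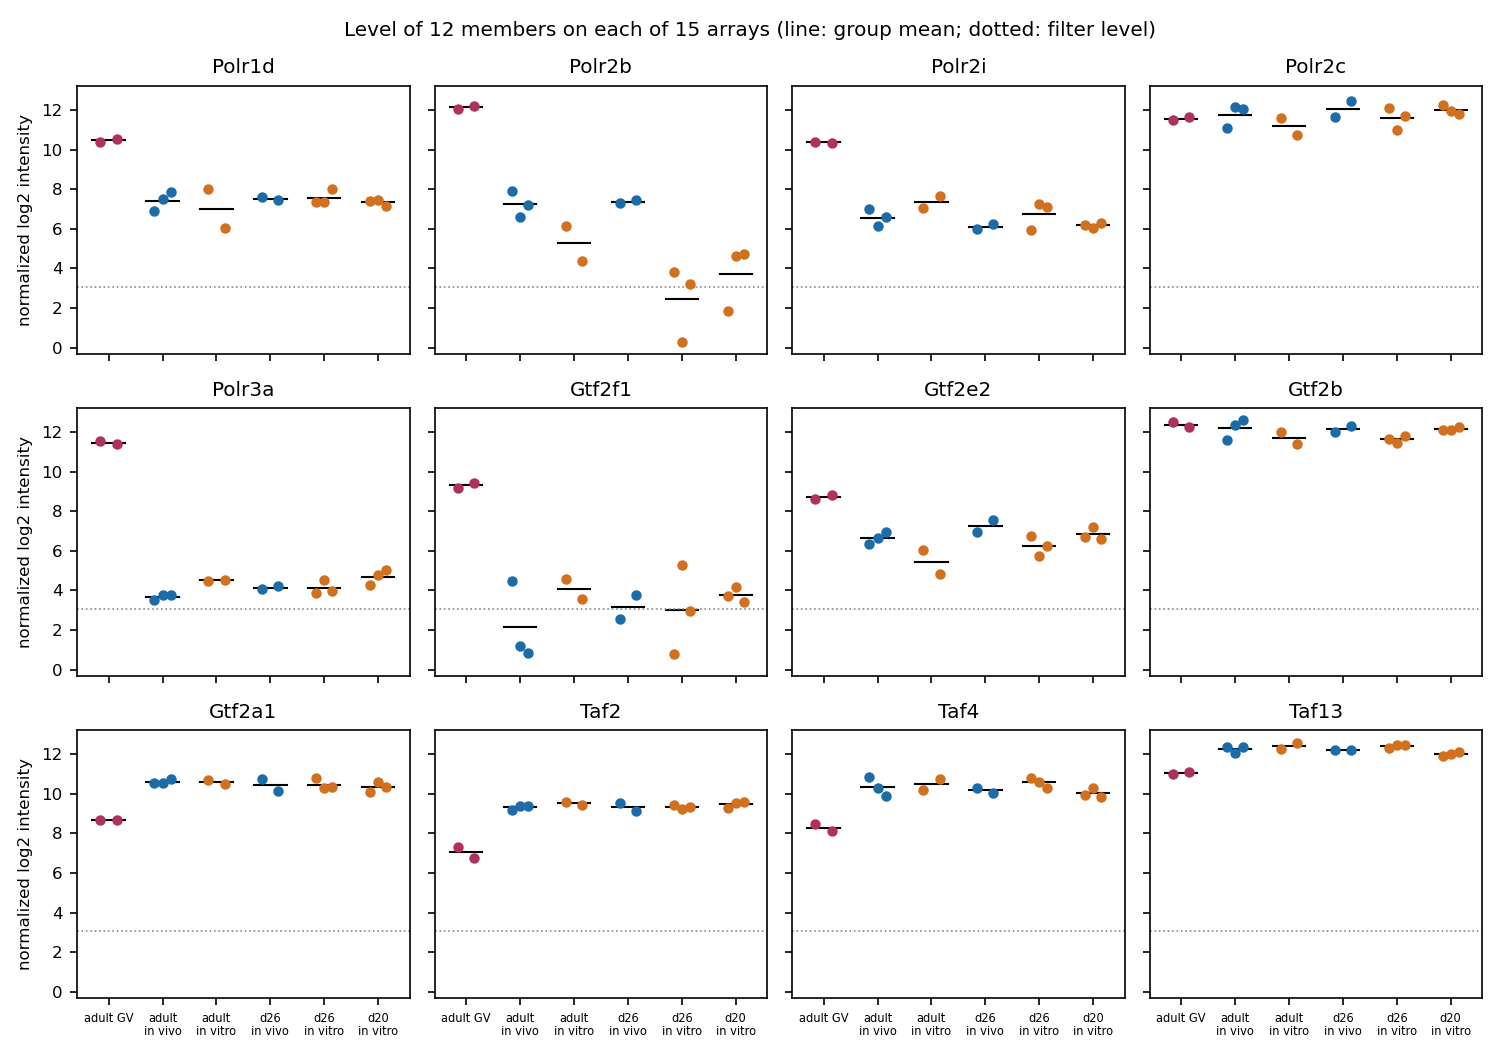
Normalized log2 intensity (y axis) of 12 members on each of the 15 arrays, by group; points are arrays, lines group means and the dotted line the filter level of 3.07. Polr1d, Polr2b, Polr2i, Polr3a, Gtf2f1 and Gtf2e2 are lower on all 13 MII arrays than on both GV arrays; Polr2c and Gtf2b overlap; Gtf2a1, Taf2, Taf4 and Taf13 are higher on this scale, but not called under the deposited or hybridization control scaling.

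TFIID and its relatives. TFIID recognises the core promoter through TBP and its TAFs, and some TAFs also belong to the coactivator SAGA. Of 18 genes of this class 16 were tested, of which 5 rose and 1 fell in each comparison on the quantile scale. Of all probe sets 15.7% were higher and 11.1% lower in vivo, and 16% and 11.7% in vitro. None of the 5 rises was called with deposited intensities or hybridization control scaling, and several reversed, as given below. The class median was 0.52 in vivo and 0.88 in vitro. Taf2, which contacts the initiator element, was at 7.30 and 6.77 in GV oocytes, at 9.20, 9.40 and 9.39 in vivo and at 9.59 and 9.43 in vitro, and between 9.13 and 9.58 on the other MII arrays. The MII arrays were tightly grouped and all above GV. The differences were 2.30 (SE 0.27, adjusted p = 3.39e-05), a 4.91-fold higher level, and 2.48 (SE 0.29, adjusted p = 4.77e-05), 5.56-fold; the in vitro difference was -0.25 with deposited intensities and -0.69 with hybridization control scaling.

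Taf4, around which TFIID assembles, was at 8.47 and 8.11, at 10.83, 10.31 and 9.87 and at 10.20 and 10.75 (2.04, SE 0.31, adjusted p = 0.000231; 2.18, SE 0.34, adjusted p = 0.000293). A second Taf4 probe set rose by 1.89 and 1.24. Taf7, a regulator of the acetyltransferase activity of Taf1, was at 6.43 and 5.97, at 8.47, 7.67 and 7.72 and at 8.60 and 8.88 (1.76, SE 0.40, adjusted p = 0.00412; 2.54, SE 0.44, adjusted p = 0.000613). One other Taf7 probe set rose by 2.01 and 2.81, and another differed by 0.47 and -0.39 without a call. Taf5, a scaffold subunit, rose by 1.78 in vitro (SE 0.41, adjusted p = 0.00476) and by 1.10 in vivo (SE 0.38, adjusted p = 0.0432), a call lost without any one of 8 arrays, with adjusted p from 0.0517 without adult in vitro replicate 1 to 0.33 without adult GV replicate 1. The in vitro rise was not called without adult GV replicate 1 (1.49, adjusted p = 0.0612), and the in vivo rise of Taf7 not without adult GV replicate 2 (1.55, adjusted p = 0.066). Taf13, named after its values were seen, rose by 1.21 (SE 0.18, adjusted p = 0.000212) and 1.35 (SE 0.20, adjusted p = 0.00021). With hybridization control scaling the in vitro differences of Taf4, Taf7, Taf5 and Taf13 reversed to -0.52, -0.79, -0.17 and -0.30.

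Taf3, whose PHD finger reads methylated histone tails at promoters, was the TAF of this class that fell, from 11.78 and 11.56 to 10.42, 9.93 and 9.77 in vivo and 9.95 and 10.61 in vitro. All MII arrays were below GV, with differences of -1.63 (SE 0.37, adjusted p = 0.00431) and -1.39 (SE 0.41, adjusted p = 0.0191). These were -1.54 in vivo (adjusted p = 0.0509) and -1.30 in vitro (adjusted p = 0.115) without adult GV replicate 1. The in vitro difference was also not called without adult GV replicate 2 (-1.53, adjusted p = 0.0676) or adult in vitro replicate 1 (-1.05, adjusted p = 0.139). Taf1, the largest subunit, was at 5.58 and 5.71, at 6.14, 7.24 and 7.55 and at 7.23 and 5.77; its differences of 1.34 (SE 0.62) and 0.86 (SE 0.68) were not called, and without the dim arrays they were 1.85 (adjusted p = 0.000518) and 1.69 (adjusted p = 0.00387). The in vivo difference was also called without d26 in vitro replicate 2 (1.36, adjusted p = 0.0433).

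The paralogs of the TAFs differed in their values. Taf5l and Taf6l, the forms that replace Taf5 and Taf6 in SAGA, were at 5.95 and 6.49 and at 5.52 and 6.64 in GV oocytes and below these on all MII arrays. Neither was called: Taf5l differed by -2.97 (SE 1.20, adjusted p = 0.0854) and -1.78 (SE 1.32), and Taf6l by -3.34 (SE 1.41, adjusted p = 0.0988) and -3.74 (SE 1.54, adjusted p = 0.089). The in vivo difference of Taf5l was called without adult in vivo replicate 2 (-3.80, adjusted p = 0.0421) or d26 in vitro replicate 2 (-3.01, adjusted p = 0.0458), and the in vitro difference of Taf6l without d20 in vitro replicate 2 (-3.73, adjusted p = 0.0455). Taf6 itself was at 6.74 and 7.02, at 6.81, 9.16 and 7.87 and at 7.38 and 5.13, with no call. Of the Taf7 paralogs, Taf7l did not pass the filter and Taf7l2 was not called. Taf9b differed by 0.08 (SE 0.57) and -0.66 (SE 0.63), and no probe set of Taf9 carried its symbol alone. Differences between paralogs were not tested.

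TFIIA, TFIIB and the factors that join later. TFIIA stabilises TBP on DNA. On the quantile scale 2 of its 3 genes rose, against 15.7% of all probe sets in vivo and 16% in vitro. Neither was called under deposited or hybridization control scaling, where the in vitro differences of Gtf2a1 reversed to -0.29 and -0.72. Gtf2a1, the precursor of the large subunits, was at 8.70 and 8.69 in GV oocytes, at 10.54, 10.55 and 10.73 in vivo and at 10.70 and 10.47 in vitro, and every MII array was at 10.07 or more. The differences were 1.92 (SE 0.26, adjusted p = 0.000111) and 1.89 (SE 0.29, adjusted p = 0.000254), and a second probe set rose by 2.59 and 2.62. Gtf2a2, the small subunit, was at 7.60 and 7.65, at 10.45, 8.76 and 9.39 and at 10.21 and 10.63 (1.91, SE 0.45, adjusted p = 0.00544; 2.79, SE 0.49, adjusted p = 0.000746). Gtf2a1l, the germ cell paralog of Gtf2a1, was at 9.61 and 9.48, at 10.31, 9.70 and 10.10 and at 10.48 and 10.23. Its differences of 0.49 (SE 0.28) and 0.81 (SE 0.31, adjusted p = 0.0641) were not called, although all MII arrays lay above GV; the in vitro difference was called at 0.80 without adult in vivo replicate 1 (adjusted p = 0.0499) or d26 in vitro replicate 2 (adjusted p = 0.047). Gtf2b, which is TFIIB and links TBP to the polymerase, stayed within 12.50 and 12.26 in GV oocytes, 11.61, 12.35 and 12.60 in vivo and 12.01 and 11.39 in vitro, and was not called (-0.19, SE 0.27, and -0.68, SE 0.30; adjusted p = 0.696 and 0.109). Its in vitro difference was -0.66 without adult in vivo replicate 1 (adjusted p = 0.038).

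TFIIF escorts the polymerase and TFIIE recruits the helicase TFIIH. Of their 4 genes 3 were tested, and Gtf2f1 and Gtf2e2 were called lower in both comparisons. Of all probe sets 11.1% were lower in vivo and 11.7% in vitro. Gtf2f1, the large TFIIF subunit, was at 9.18 and 9.44 in GV oocytes, at 4.45, 1.20 and 0.85 in vivo and at 4.60 and 3.59 in vitro. On the other MII arrays it was between 0.79 and 5.28, so that its MII values scattered around the filter level while all lay below GV. The differences were -7.14 (SE 1.19, adjusted p = 0.000471) and -5.22 (SE 1.30, adjusted p = 0.0073); the latter was -5.07 without adult GV replicate 2 (adjusted p = 0.0547) and -4.75 without adult in vitro replicate 2 (adjusted p = 0.0576). Gtf2f2, the small subunit, was at 6.14 and 6.61, at 2.92, 1.43 and 1.46 and at 2.56 and 4.38. It fell in vivo (-4.44, SE 1.41, adjusted p = 0.029), though not without adult GV replicate 1 or 2 (adjusted p = 0.116 and 0.174) or adult in vivo replicate 2 or 3 (0.0679 and 0.0735). In vitro it was not called (-2.91, SE 1.54, adjusted p = 0.189), but it was without d26 in vitro replicate 2 (-2.95, adjusted p = 0.0105), which at -1.29 was its lowest array.

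Gtf2e2, the small subunit of TFIIE, was at 8.61 and 8.81, at 6.35, 6.63 and 6.97 in vivo and at 6.07 and 4.81 in vitro, and below GV on all other MII arrays. It fell by 2.06 (SE 0.46, adjusted p = 0.00352) and by 3.27 (SE 0.50, adjusted p = 0.000277). Its partner Gtf2e1 did not pass the filter. In TFIIH, which opens the promoter, Gtf2h5, the smallest core subunit, was at 8.16 and 8.07, at 6.55, 6.52 and 6.20 and at 5.47 and 5.86 (-1.69, SE 0.40, adjusted p = 0.00553; -2.45, SE 0.44, adjusted p = 0.000814), with an in vivo adjusted p of 0.0518 without adult GV replicate 1. Gtf2h1, Gtf2h3 and Gtf2h4 were not called, at -0.39 (SE 0.38), 1.03 (SE 0.63) and 0.88 (SE 0.41) in vivo; for Gtf2h3 1.81 was called without adult in vivo replicate 1 (adjusted p = 0.0146). The signal-responsive factor Gtf2i and its relatives Gtf2ird1 and Gtf2ird2 had differences between -0.33 and -0.19 in vivo, none called.

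TFIIIA and TFIIIC. TFIIIC binds the internal promoters of polymerase III genes, and TFIIIA, encoded by Gtf3a, directs it to the 5S ribosomal RNA genes. Of the 6 TFIIIC and TFIIIA genes tested, Gtf3c2 and Gtf3c3 rose in vivo and Gtf3c4 in vitro on the quantile scale. Of all probe sets 15.7% were higher in vivo and 16% in vitro, so the in vitro count is near that share. All 3 rises reversed under deposited intensities, to -0.53, -0.61 and -1.01. Gtf3c3 was at 7.95 and 7.39, at 8.80, 8.60 and 8.87 and at 8.58 and 8.31 (1.09, SE 0.28, adjusted p = 0.00917; 0.78, SE 0.31, adjusted p = 0.0746). Gtf3c4 was at 5.08 and 5.09, at 5.85, 6.15 and 6.56 and at 7.18 and 6.33 (1.10, SE 0.41, adjusted p = 0.0629; 1.67, SE 0.45, adjusted p = 0.012). Gtf3c2 differed by 0.99 (SE 0.32, adjusted p = 0.0315) and 0.68 (SE 0.35, adjusted p = 0.171), and another of its probe sets fell by 3.62 in vitro (adjusted p = 0.0157). For these 3 genes all MII arrays lay above both GV arrays on this scale, as they did for 18% of all probe sets tested.

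The calls in this class rested on single arrays. Gtf3c3 was not called without adult GV replicate 2 (0.82, adjusted p = 0.154). Gtf3c2 was not called without adult GV replicate 1 or 2 (adjusted p = 0.184 and 0.108) or adult in vivo replicate 2 or 3 (0.0994 and 0.0516). The in vitro call of Gtf3c4 was lost without adult GV replicate 1 or 2 (0.0662 and 0.0686) or adult in vitro replicate 1 (0.0944), while its in vivo rise was called on leaving out replicate 1 of adult in vivo MII (0.0407), either replicate of adult in vitro MII (0.0482 and 0.0455) or d26 in vitro replicate 2 (0.045). Gtf3a was at 6.61 and 6.99, at 1.43, 5.56 and 5.48 and at 4.98 and 2.10, and its differences of -2.65 (SE 1.26) and -3.26 (SE 1.38) were not called; the in vitro one was -4.72 without adult in vitro replicate 1 (adjusted p = 0.048) and was also called without adult in vivo replicate 1 (-3.30, adjusted p = 0.0318). The arrays at 1.43 and 2.10 are dim ones. Gtf3c1 and Gtf3c6 were not called, and Gtf3c5 did not pass the filter. The in vivo difference of Gtf3c6, -1.11 (adjusted p = 0.151), was called without adult in vivo replicate 1 (-1.61, adjusted p = 0.0325), without the dim arrays (-1.73, adjusted p = 0.00411) and with array weights (-1.60, adjusted p = 0.000661). Both of its differences were called under the 3 other scalings, between -3.48 and -2.37 in vivo and between -4.24 and -2.40 in vitro.

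**Figure D3:**
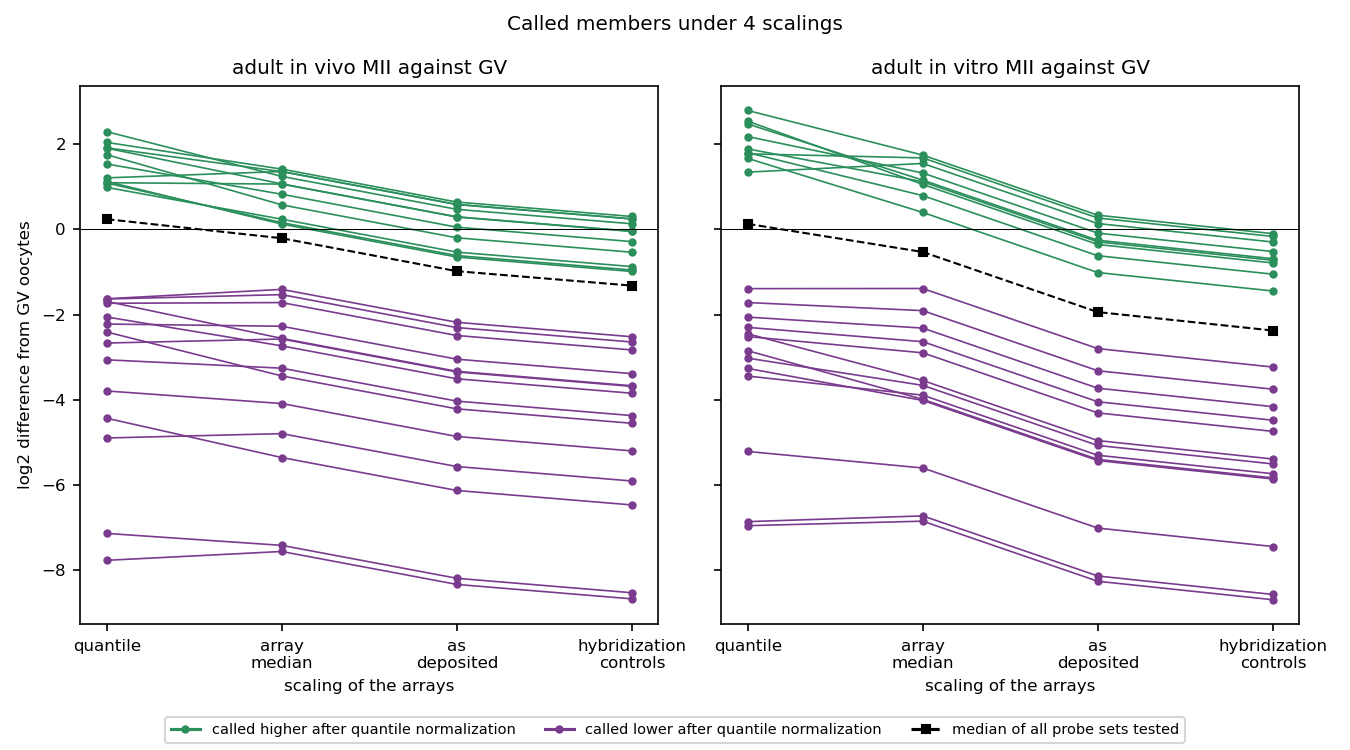
Log2 difference from GV oocytes (y axis) of the members called higher (green) or lower (purple) after quantile normalization, under 4 scalings of the arrays (x axis), for in vivo (left) and in vitro (right) matured adult MII oocytes; black squares are the median of all probe sets tested. The green lines cross 0 in 7 of 11 members in vivo and all 9 in vitro but stay above the median, and the purple lines stay below 0. Array median, deposited and hybridization control scaling shift all members of a comparison alike. The median lies lower under each of them than under quantile normalization.

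The 8 members that did not pass the filter had means over the 15 arrays between 1.66 and 2.99. They were Polr1e, Polr3c, Polr3g, Taf1c, Taf15, Taf7l, Gtf2e1 and Gtf3c5. In 5 of them, Polr1e, Polr3c, Taf1c, Gtf2e1 and Gtf3c5, both GV arrays were above the filter level. Polr3c, a polymerase III subunit, was at 5.61 and 5.85 in GV oocytes and at most at 4.20 on the MII arrays. All 61 tested members had a mean over the 13 MII arrays alone at or above the filter level.

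Partners outside the members. Another 96 genes of the transcription machinery were listed by name, with some rises and falls among them known from earlier results, and 90 were tested. In vivo 20 were higher and 20 lower, with a median of -0.24, and in vitro 21 and 21, with a median of -0.30. Over all probe sets tested 15.7% were higher and 11.1% lower in vivo, with a median of 0.24, and 16% and 11.7% in vitro, with a median of 0.13. Tbp, the TATA-binding protein, was not called (-0.32 and -0.26), while its relative Tbpl1 rose by 2.87 and 3.28. Of the 5 other TFIIH genes 2 were called lower in vivo and 3 in vitro, against 11.1% and 11.7% of all probe sets. Ccnh, the cyclin of its kinase, differed by -3.53 (SE 0.42) and -3.91 (SE 0.46) and Cdk7, the kinase, by -2.05 (SE 0.45) and -2.94 (SE 0.49), all called. Mnat1, their assembly factor, was not called (-1.78 and -0.74), nor was the helicase gene Ercc2 (-0.76 and 0.43), and the helicase gene Ercc3 was called in vitro alone (-3.18, adjusted p = 0.0585, and -5.72, adjusted p = 0.0037). Rrn3, which brings polymerase I to SL1, differed by -1.11 and -1.50, both called. Of 7 polymerase III initiation genes 2 rose and 1 fell, against the shares of all probe sets given above. Brf2, of the factor used at external promoters, differed by -3.79 and -5.78, and Bdp1 by 1.61 and 1.96.

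The Mediator complex, which links activators to polymerase II, had called genes in both directions, with 8 of 32 genes higher and 6 lower in vivo, against the 15.7% and 11.1% of all probe sets. Med17, Med8 and Med7 differed by -4.56, -3.89 and -3.56 in vivo, whereas Med13 and Med31 rose by 2.57 and 2.18. Of 21 elongation and pausing genes 4 rose and 4 fell in each comparison, against the same shares of all probe sets, with Nelfe at -3.45 and Supt5 at -3.25 in vivo. Gpn1, needed for nuclear import of polymerase II, fell by 4.70 and by 6.60 (adjusted p = 8.84e-05 and 1.74e-05), and Rpap2, a phosphatase of the polymerase II tail, by 3.28 and by 2.70. The rises named here are on the quantile scale and relative to the array, as for the members.

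Maturation in vivo against in vitro. This comparison asks whether oocytes matured in the body and in culture reach MII with different transcripts, and none of the 61 tested members was called in it. By limma, 0 members were called in adult MII (3 at an unadjusted p below 0.05), against 0.00444% of all probe sets, and 0 in d26 MII (5 at an unadjusted p below 0.05), against 0.04%. For the mean of both ages 0 were called (10 at an unadjusted p below 0.05), against 0.226%. For the dependence of the difference on age 0 were called (0 at an unadjusted p below 0.05), against 0%. The arrays of adult in vivo and in vitro MII did not overlap in 14 members, against 19.2% of all probe sets, and those of d26 did not in 12, against 20%.

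Polr2b had the smallest p of the members for d26 and for the mean of both ages. Its d26 in vivo arrays, at 7.29 and 7.44, were above all d26 in vitro arrays, at 3.82, 0.30 and 3.21, of which the last 2 are from dim arrays. The adult in vivo arrays were likewise all above the adult in vitro ones. The difference was 4.92 for d26 (SE 0.99, adjusted p = 0.107) and 3.44 for the mean of both ages (SE 0.70, adjusted p = 0.0699), so neither was called. With median scaling both were, at 5.09 (adjusted p = 0.0434) and 3.51 (adjusted p = 0.0371). The mean difference was also called with a pseudocount (3.22, adjusted p = 0.0344) and without d26 in vitro replicate 1 (3.79, adjusted p = 0.0388) or 2 (2.96, adjusted p = 0.0497). It was 3.90 without adult in vitro replicate 1, which leaves only the dim adult array in that group. It was not called with deposited intensities, with hybridization control scaling or without the dim arrays. Its dependence on age was -2.95 (SE 1.40, adjusted p near 1).

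Gtf2e2 and Polr2m came next for the mean difference. Gtf2e2 was higher in vivo by 1.21 in adults and by 1.11 on average (SE 0.32, adjusted p = 0.209), and Polr2m by 1.35 and by 1.36 (SE 0.43, adjusted p = 0.238). Neither was called. Without adult in vitro replicate 1, which leaves only the dim adult array in that group, the mean differences were 1.42 for Gtf2e2 and 1.81 for Polr2m. Taf6 differed by 1.69 in adults, and Polr2d and Gtf2ird2 by 1.16 and 2.95 in d26, with adjusted p between 0.577 and 0.653. For Gtf2ird2 the 2 dim d26 in vitro arrays, at -0.59 and 1.30, were the low ones, against 4.55 on the other.

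Age of the female, in vitro MII. These comparisons set oocytes of prepubertal and adult females side by side after the same culture. Limma called 0 members in d20 against adult (14 at an unadjusted p below 0.05), against 0.0222% of all probe sets, 0 in d26 against adult (3), against 0.00444%, and 0 in d20 against d26 (6), against 0%. The arrays did not overlap in 31 members for d20 against adult, where 41.5% of all probe sets did not. They did not overlap in 5 for d26 against adult, against 16.5%, and in 11 for d20 against d26, against 18.5%.

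Taf8, a TAF that bridges parts of TFIID, was at 7.45, 7.32 and 6.48 in d20 MII, at 7.34, 5.39 and 6.48 in d26 MII and at 5.89 and 1.38 in adult MII, all matured in vitro. The low value is from the dim adult array. The differences from adult were 3.45 for d20 (SE 0.95, adjusted p = 0.155) and 2.77 for d26 (SE 0.95, adjusted p = 0.561). Without adult in vitro replicate 1, which leaves only that dim array in the adult group and assumes it varies as the other groups do, they were 5.73 (adjusted p = 0.00224) and 5.05 (adjusted p = 0.00562).

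Polr1a was at 6.08, 5.33 and 5.86 in d20 MII and 1.81 and 3.38 in adult MII, a difference of 3.16 (SE 0.90, adjusted p = 0.165) that was called without the dim arrays (4.08, adjusted p = 0.0104). Polr3b differed by 1.85 for d20 against adult (adjusted p = 0.172) and by 1.47 for d26 against adult (adjusted p = 0.592). Without adult in vitro replicate 1, which leaves only the dim adult array, where Polr3b was at 4.14, these were 2.90 (adjusted p = 0.0134) and 2.52 (adjusted p = 0.0358), with the spread taken from the other groups. In that fit 679 of all probe sets were called higher and 83 lower in d20 than in the lone adult array, against 4 and 1 with both adult arrays. Between d20 and d26 the smallest p-values were those of Polr3f (2.72, SE 0.99), Polr1c (-1.04, SE 0.38) and Polr2h (3.00, SE 1.21), with adjusted p from 0.414 to 0.417. For Polr3f and Polr2h the lowest d26 values, 1.32 and 0.08, were on dim d26 in vitro replicate 2.

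**Figure D4:**
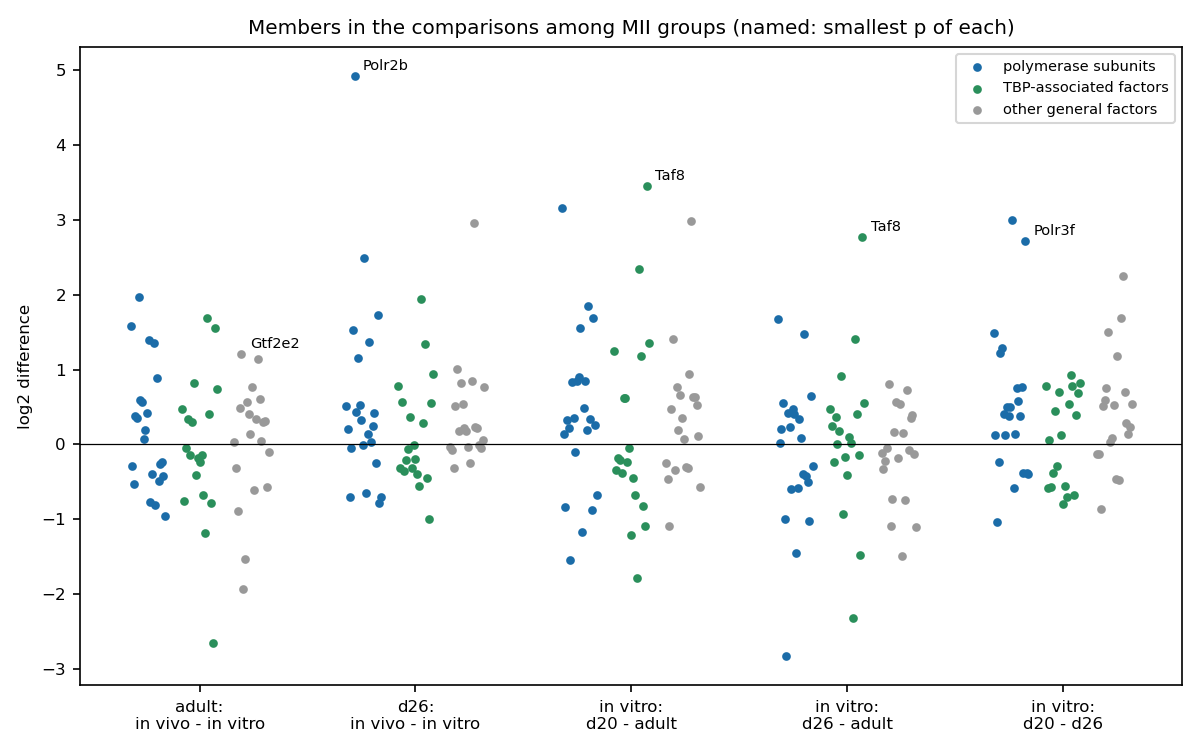
Log2 difference (y axis) of the 61 tested members in 5 comparisons among MII groups (x axis), coloured by polymerase subunits, TBP-associated factors and other general factors; each point is a member. None had an adjusted p below 0.05; the member with the smallest p of each comparison is named, and Polr2b in d26 has the largest difference, 4.92.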

How the data were processed

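The authors deposited linear intensities of 45101 probe sets for each of 15 arrays. The submitters' processing notes name MAS5 for these values, without a version or a scaling target. The 64 control probe sets were left out, the log2 intensities were quantile normalized, and the 22519 probe sets in the upper 50% by mean (log2 level 3.07 or more) were tested with limma 3.58.1 in R 4.3.3: a mean for each of 6 groups, variances with an intensity trend, 9 residual degrees of freedom and Benjamini-Hochberg adjustment within each of 9 comparisons. Symbols came from the platform annotation, where 34958 probe sets had 1 symbol, 932 several and 9211 none; 34754 were updated through gene identifiers to GRCm38.p6 names. Promoter sequences are RefSeq's, and 62 of 69 members matched.

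The members, lists and alternatives were chosen with earlier results of these data known. Named genes were the large subunits, up to 4 called and 2 other members a class, the members called or with the 3 smallest p-values in each MII comparison, paralog pairs, and up to 3 partners a subgroup; Taf13 and some further partners fall outside it. Alternatives were the deposited intensities, median and hybridization control scaling (18 probe sets), no filter or the upper 30%, a pseudocount of 1.11, no variance trend, array weights, the compared arrays alone, leaving out the dim arrays or each array, and every probe set of a member. Replicates were numbered by record order, so equal numbers do not link samples. Tested on simulated data with 200 changed probe sets, the in vivo against GV fit recovered 63.6% of changes of 4, 17.9% of 2 and 1.49% of 1 (log2), with 3 false calls. In the data 26.8% of probe sets were called in that comparison. The adjusted cutoff was thus stricter in the simulation, and its shares are not the recovery in the data. The number of arrays limits the precision.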

Additional observations from a re-analysis of the deposited data

How the results depend on the processing

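Against GV, members called higher in vivo were 11 after quantile normalization, 3 with median scaling, and 0 with deposited intensities or hybridization control scaling; in vitro they were 9, 4, 0 and 0, and members called lower in vitro were 13, 23, 27 and 28. Of all called probe sets 58.7% (in vivo) and 57.7% (in vitro) were higher after quantile normalization, 23.7% and 22.7% with median scaling, 0.656% and 0.176% as deposited, and 0.24% and 0.0839% with hybridization controls. In vivo differences that reversed as deposited and with hybridization controls were those of Polr2f (-0.65, -0.99), Taf7 (-0.20, -0.54), Gtf3c2 (-0.53, -0.87) and Gtf3c3 (-0.61, -0.95), and with hybridization controls alone Polr3e (-0.29), Gtf2a2 (-0.043) and Taf5 (-0.048). In vitro they were Polr1c (-2.29, -2.72), Polr3e (-0.62, -1.05), Gtf2a1 (-0.29, -0.72), Taf2 (-0.25, -0.69), Taf4 (-0.087, -0.52), Taf7 (-0.35, -0.79) and Gtf3c4 (-1.01, -1.45), and with hybridization controls alone Gtf2a2 (-0.10), Taf13 (-0.30) and Taf5 (-0.17). Array weights gave 18 higher in vivo and the compared arrays alone 7; leaving out the dim arrays gave 15 higher in vitro and 1 in d20 against adult; median scaling gave 1 higher in d26 in vivo against in vitro and 1 in the mean of both ages, as did the pseudocount. Leaving out 1 array gave 5 (without adult GV replicate 2) to 14 higher and 10 to 15 lower in vivo, and 7 to 11 higher and 9 to 16 lower in vitro; it gave 0 to 1 higher in adult in vivo against in vitro, 0 to 4 in d20 against adult, 0 to 2 in d26 against adult and 0 to 4 in the mean of both ages, the highest each time without adult in vitro replicate 1. Beyond the scalings and these fits the cause was not tested. In every alternative 8 of 14 falls in vivo and 9 of 13 in vitro kept their call, as did 0 of 11 and 0 of 9 rises. Since the other scalings moved the median of all probe sets down, these counts do not set falls and rises on equal terms. No paired analysis was possible because the replicate numbers are only an order of records. With 2 GV arrays an uncalled member may still have changed. The simulated recovery of 1.49% for changes of 1 does not measure how often, because far fewer probe sets were changed there than were called here.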

Other observations

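Transcription of the mitochondrial genome uses a separate single-subunit polymerase, and its genes were among the listed partners. Of 9 tested, 3 were lower and 3 higher than in GV oocytes in both comparisons on the quantile scale, against 15.7% of all probe sets higher and 11.1% lower in vivo and 16% and 11.7% in vitro. Polrmt, the polymerase itself, differed by -2.95 in vivo (SE 0.56, adjusted p = 0.00125) and -2.14 in vitro (SE 0.62, adjusted p = 0.0173) by limma. Tfb1m, an rRNA methyltransferase related to the initiation factor, differed by -3.38 and -2.74, and Mterf4 by -3.37 and -2.93. Tfb2m, the initiation factor that melts the promoter, rose by 1.92 (SE 0.45, adjusted p = 0.00521) and 1.41 (SE 0.49, adjusted p = 0.0461), and Mterf3 and Mterf1a rose by 1.81 and 2.23 in vivo. These rises, like those of the nuclear factors, are relative to the other RNA on the array.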
